A study of Drosophila melanogaster with 2 samples.

Results

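Pericentric heterochromatin is the gene-poor sequence beside each centromere, where transposon remnants and satellite repeats surround a small number of active genes. The regions described here are the E(var)3-9-GFP ChIP-seq regions of assembly dm6 whose summit lay in a fixed window next to the centromere of 4 chromosome arms of Drosophila melanogaster. The windows were arm 2L from 22 Mb, arm 3L from 23 Mb and arm X from 22 Mb to the arm's end, and arm 3R up to 4.2 Mb. Position alone chose the regions. There were 475 among the 24963 regions of the joint list, with 118 on 2L, 196 on 3L, 74 on 3R and 87 on X. The rest of the same 4 arms held 20010.

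The chromatin came from whole embryos of mixed sex, 0 to 24 h old, of a transgenic line that stably carries E(var)3-9 with GFP fused to its C-terminus, and an anti-GFP antibody was used for the precipitation. A single group with 2 biological replicates, numbered 2 and 3, was measured, so there was no comparison between conditions, and whole embryos mix all cell types and stages of that day. For each replicate there was a list of 30000 regions. The joint list was called on both replicates together, and its 3438 strongest regions, here called IDR peaks, are those kept by the authors under the irreproducible discovery rate (IDR), a measure of rank agreement between replicates. Most joint regions are weak, and the lists were made to include background. Each region carries a signal value, a score given by the authors' caller with no stated scale, larger for stronger regions.

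E(var)3-9 is named for its effect on position-effect variegation, the patchy silencing of a gene that comes to lie beside heterochromatin, where a mutation of it enhances silencing. Heterochromatin is marked by methylated lysine 9 of histone H3 and by HP1a, yet genes such as lt and RpL15 live inside it and are active there. Genes native to it often span very long introns filled with transposon remnants.

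The windows had the properties of pericentric sequence. They held 12.2 Mb of known bases against 94.9 Mb in the rest of the 4 arms. Annotated transposons covered 15.2% of the windows and 4.0% of the rest. The windows had 327 distinct transcription start sites (TSSs), or 26.9 per Mb, against 18202 in the rest, or 192 per Mb. The windows contained 146 protein-coding genes and the rest 10867. Positions whose 50-mer occurs once in the genome, a measure of where a short read can be placed, made up 46.3% of the windows and 95% of the rest.

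The strongest regions of the windows lay just upstream of TSSs, and 10 of their summits are shown to let the sequence be read beside the signal. The first 9 are IDR peaks, namely the strongest member, the intronic peak at mir-2491 and 7 promoters of genes described below. Alg-2 is the strongest member on 3R. Each run is the plus strand of dm6, 60 bases to either side of the summit, and none of them overlaps an annotated exon. Capitals mark matches, on either strand, to 3 motifs: CGATA, which is part of the DREF site, then GAGAG, the core of the GAGA factor site, and GTTCACA, a run of letters noticed in these summits.
l(1)G0196 (chrX:22491151-22491271): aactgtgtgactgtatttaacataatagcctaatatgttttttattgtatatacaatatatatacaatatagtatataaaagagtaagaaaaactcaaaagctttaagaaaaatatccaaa
l(3)80Fg (chr3L:26014122-26014242): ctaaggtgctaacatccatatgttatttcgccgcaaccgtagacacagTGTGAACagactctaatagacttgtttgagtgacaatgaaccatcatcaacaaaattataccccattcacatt
UQCR-11 (chr3L:25120565-25120685): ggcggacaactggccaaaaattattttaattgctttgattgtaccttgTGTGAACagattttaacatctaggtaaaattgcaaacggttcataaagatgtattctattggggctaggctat
mir-2491 (chrX:22833641-22833761): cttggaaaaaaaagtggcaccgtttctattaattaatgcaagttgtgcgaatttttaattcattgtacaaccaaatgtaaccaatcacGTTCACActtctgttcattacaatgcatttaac
RpL10 (chr3L:23095485-23095605): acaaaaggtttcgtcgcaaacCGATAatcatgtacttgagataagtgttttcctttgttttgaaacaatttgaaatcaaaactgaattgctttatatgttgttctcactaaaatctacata
Nubpl (chr2L:22239757-22239877): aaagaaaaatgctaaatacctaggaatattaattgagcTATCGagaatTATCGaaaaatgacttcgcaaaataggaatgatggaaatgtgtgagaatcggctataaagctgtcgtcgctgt
Clamp (chr2L:22169243-22169363): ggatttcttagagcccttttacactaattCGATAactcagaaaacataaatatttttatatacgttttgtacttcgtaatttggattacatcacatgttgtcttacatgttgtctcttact
RpL15 (chr3L:27267131-27267251): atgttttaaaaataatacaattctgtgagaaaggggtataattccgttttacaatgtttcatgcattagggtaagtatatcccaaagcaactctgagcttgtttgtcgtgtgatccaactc
lt (chr2L:22924591-22924711): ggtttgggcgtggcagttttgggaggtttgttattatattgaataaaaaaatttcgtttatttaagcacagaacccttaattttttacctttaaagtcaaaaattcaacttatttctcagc
Alg-2 (chr3R:3622965-3623085): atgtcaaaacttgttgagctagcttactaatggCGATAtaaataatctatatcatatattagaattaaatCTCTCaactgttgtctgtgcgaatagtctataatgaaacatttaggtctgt
The capitals in l(3)80Fg, UQCR-11 and mir-2491 mark GTTCACA or its complement. Those in RpL10, Nubpl and Clamp mark CGATA, and Alg-2 has CGATA besides a match to GAGAG. No such letters occur in the runs of l(1)G0196, RpL15 and lt. The sequence around IDR summits was rich in A and T, with a median of 67.4% in the windows and 66.7% in the rest, measured within 100 bp of the summit.

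Regions were sparse in the windows per length of sequence, while the rate per TSS did not pass a test of difference in the joint list. The joint list had 39.0 regions per Mb in the windows against 211 per Mb in the rest of the same arms, a rate ratio of 0.185 (95% Clopper-Pearson interval 0.169 to 0.203, exact two-sided conditional binomial test, Benjamini-Hochberg adjusted over 12 tests, adjusted p below 1e-300, the smallest value written). Within 500 bp of a TSS it had 96 regions for the 327 TSSs of the windows, or 0.294 per TSS, against 5168 for the 18202 TSSs of the rest, or 0.284 per TSS. That ratio was 1.03 (interval 0.836 to 1.27, adjusted exact p = 0.714 in the same test) and did not pass. With the TSSs of protein-coding genes alone it was 1.30 (1.04 to 1.61, adjusted exact p = 0.0226), higher in the windows. Farther than 500 bp from every TSS, the windows had 31.8 regions per Mb of such sequence and the rest had 184, a ratio of 0.173 (0.156 to 0.192, adjusted p below 1e-300). Neighbouring regions are not independent of each other, and the intervals cover the counting of regions only.

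The IDR peaks of the windows lay at promoters, with 1 exception. The windows held 18 IDR peaks and the rest 2790, or 1.48 per Mb against 29.4 per Mb, a ratio of 0.0503 (0.0298 to 0.0797, adjusted exact p = 4.21e-117). Of those 18, 17 lay within 500 bp of a TSS (94.4%, 95% Wilson interval 74.2 to 99), against 1446 of the 2790 in the rest (51.8%, 50 to 53.7). Per TSS the ratio was 0.654 (0.380 to 1.05), which did not pass the test (adjusted exact p = 0.0984). The single IDR peak away from TSSs stood against 1344 in the rest, a ratio of 0.00505 per Mb (0.000128 to 0.0282, adjusted exact p = 3.39e-78). The windows had 0 IDR peaks in introns outside promoters and 0 in intergenic sequence, against 968 and 333 in the rest of the arms.

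Both replicates were low per Mb in the windows, and per TSS the ratio was below 1 past the threshold in replicate 2 and did not pass in replicate 3. Replicate 2 had 348 regions in the windows against 24022 in the rest, a ratio per Mb of 0.113 (0.101 to 0.126). Replicate 3 had 1069 against 23548, a ratio of 0.354 (0.333 to 0.376), and both had an adjusted exact p below 1e-300. Per TSS, replicate 2 gave 0.743 (0.598 to 0.914, adjusted exact p = 0.00526), lower in the windows. Replicate 3 gave 1.19 (0.966 to 1.46, adjusted exact p = 0.0984) and did not pass. Promoter regions numbered nearly the same in both replicates, 91 in replicate 2 and 98 in replicate 3. Away from TSSs replicate 2 had 257 and replicate 3 had 971, with ratios of 0.101 (0.0892 to 0.115) and 0.347 (0.325 to 0.370).

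**Figure D1:**
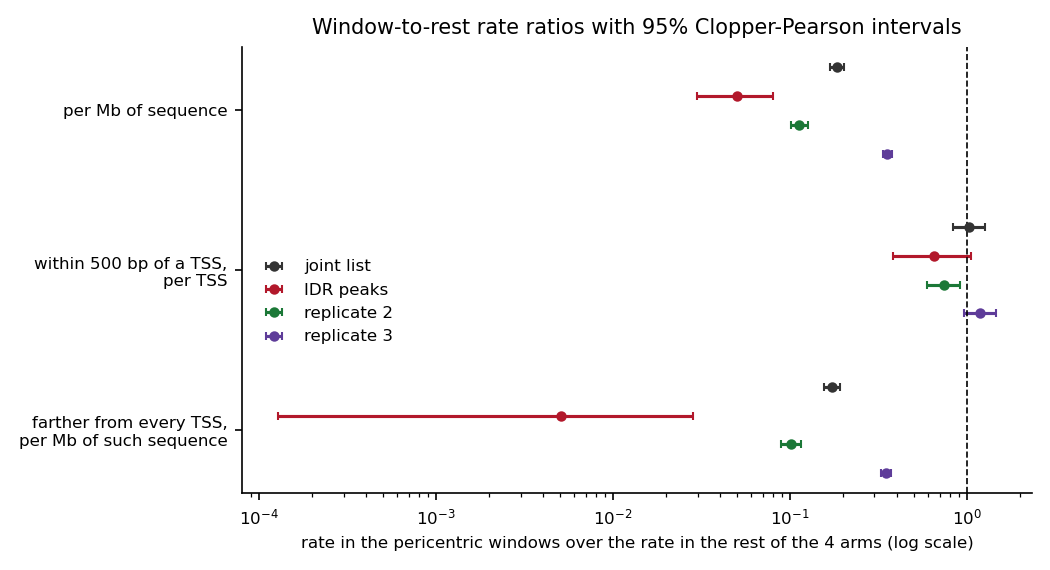
Rate of regions in the pericentric windows over the rate in the rest of the 4 arms, on a log axis, for the joint list, the IDR peaks and each replicate list; bars are 95% Clopper-Pearson intervals and the dashed line is equality. Ratios per TSS lie between 0.654 and 1.19, while every ratio per Mb and away from TSSs lies at or below 0.354.

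Counting length by what short reads can be placed in brought the ratios closer to equality and kept them below it. With positions of a unique 50-mer as length, the joint ratio was 0.380 (0.346 to 0.416, adjusted exact p = 1.44e-132) and that of the IDR peaks 0.103 (0.0611 to 0.163, adjusted exact p = 1.16e-49). TSSs were less affected: 235 of the 327 TSSs in the windows (71.9%) had unique 50-mers at 90% or more of the positions within 500 bp, against 96.2% in the rest. Of those, 119 had a joint summit within 500 bp (50.6%, Wilson interval 44.3 to 57.0), against 37.9% in the rest (37.2 to 38.7). The replicates differed here. Replicate 2 had 47.7% (41.4 to 54.0) in the windows and 46.6% (45.9 to 47.4) in the rest. Replicate 3 had 50.2% (43.9 to 56.6) and 33.5% (32.8 to 34.2). For IDR peaks the shares were 14.5% (10.5 to 19.5) and 13.4% (12.9 to 13.9). Among the other 92 TSSs of the windows, 7 had a joint summit (7.61%, 3.73 to 14.9), against 7.53% (5.78 to 9.74) of such TSSs in the rest. Read length and mapping rules are not stated in the labels read here, so unique 50-mers stand in for them.

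The ratio was also taken in each of the 4 windows. On 2L the window had 78.0 joint regions per Mb against 215 in the rest of the arm, a ratio of 0.363 (0.30 to 0.435). The other ratios were 0.310 (0.248 to 0.384) on X, 0.170 (0.147 to 0.196) on 3L and 0.0851 (0.0667 to 0.107) on 3R. All 4 passed the exact test (adjusted over the 4 arms, p from 6.48e-246 to 8.41e-38). On 2L, 60 of the 118 window regions and 44 of the 93 window TSSs lay in the first 250 kb past the border. Unique 50-mers made up 92.3% of that stretch, and later stretches of 250 kb held 7 to 14 regions each. Per TSS, the joint ratios were 1.35 (0.936 to 1.89) on 2L, 1.34 (0.920 to 1.89) on 3L, 1.36 (0.678 to 2.44) on 3R and 0.490 (0.284 to 0.788) on X, given without a test. On 2L and 3L the replicates lay on opposite sides of 1. Replicate 2 had 0.813 (0.534 to 1.19) on 2L, 0.930 (0.630 to 1.32) on 3L, 1.40 (0.784 to 2.32) on 3R and 0.395 (0.233 to 0.626) on X. Replicate 3 had 1.41 (0.967 to 1.99), 1.80 (1.27 to 2.48), 1.23 (0.562 to 2.34) and 0.580 (0.336 to 0.934) in the same order. The X window had the most TSSs of the 4, and 49 of them lacked unique 50-mers at 90% of positions. None of those 49 had a joint summit, which allows a share of up to 7.27% by the Wilson interval. Of the other 72 TSSs on X, 24 had one (33.3%, 23.5 to 44.8), against 39.2% (37.6 to 40.8) in the rest of X.

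The regions nearest the borders were weak. On 3L, 3R and 2L regions lay within 2.21 kb of the border on the window side, at 0.614 kb, 2.21 kb and 0.988 kb, with joint signals of 19.2, 25.8 and 20.6. Outside the window the nearest were at 18.1 kb, 1.51 kb and 3.22 kb, with signals of 28.2, 20.1 and 19.2. On X the border fell in a stretch with no joint region, with the nearest 444 kb inside the window (signal 26.4) and 365 kb outside it (26.9). Moving every border by 500 kb in either direction put the joint ratio per Mb at 0.147 with smaller windows and 0.239 with larger ones. The windows used here held 18 IDR peaks, the smaller ones 9 and the larger ones 44.

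**Figure D2:**
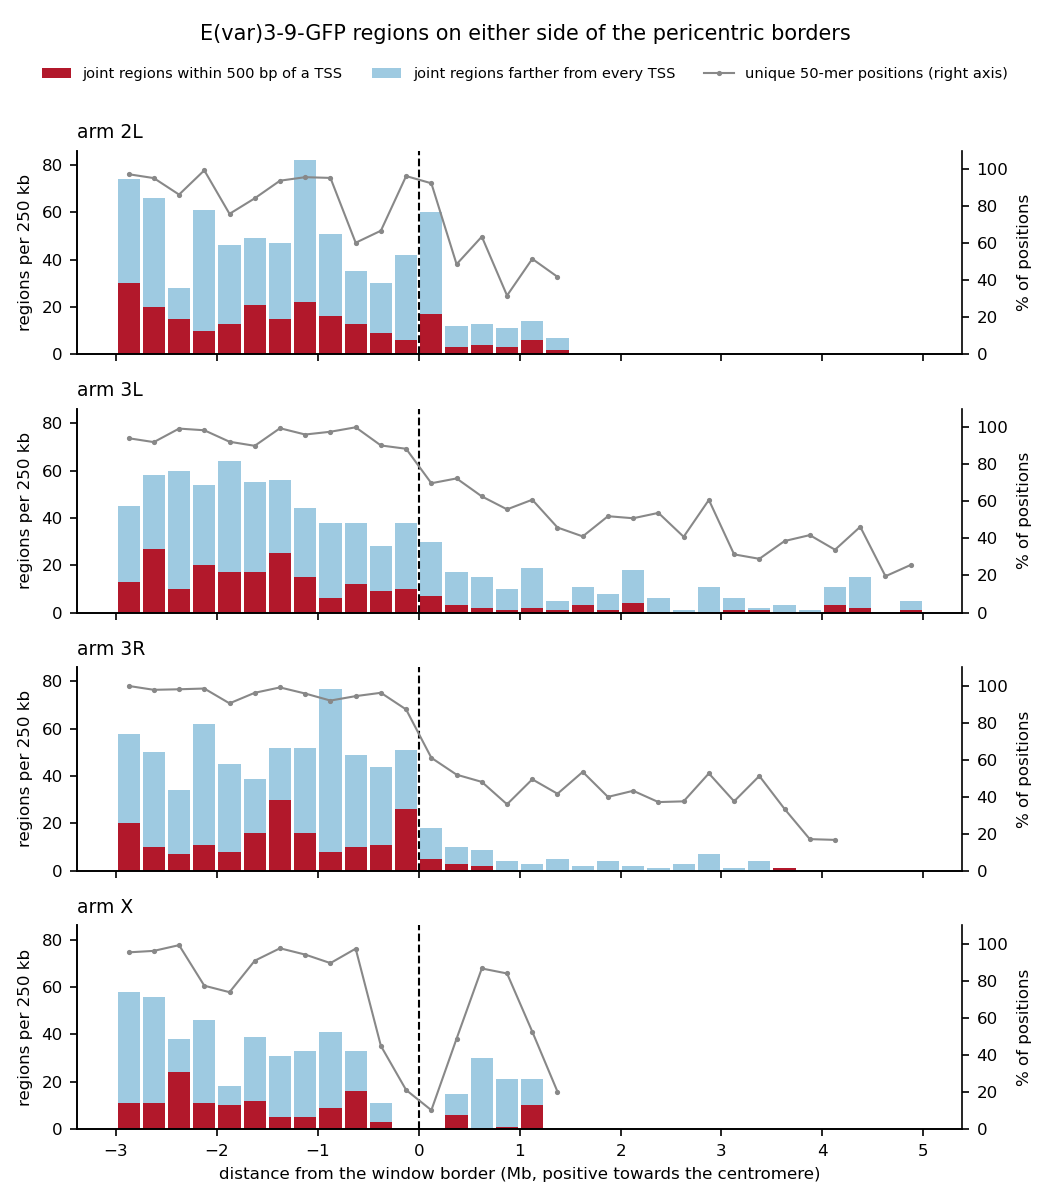
Joint regions per 250 kb against distance from the window border in Mb (positive towards the centromere) on arms 2L, 3L, 3R and X, split into regions within 500 bp of a TSS and regions farther away, with the share of positions whose 50-mer is unique on the right axis. The dashed line is the border. Counts past it thin out on 3L and 3R, and on 2L after the first 250 kb. Arm X has an empty stretch on both sides of the border.

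A joint region stood at the promoter of 68 of the 146 protein-coding genes in the windows (46.6%, Wilson interval 38.7 to 54.7), against 4604 of 10867 in the rest (42.4%, 41.4 to 43.3). Over all protein-coding genes of the 4 arms the background share was 42.4%. IDR peaks were at 16 genes of the windows (11.0%, 6.86 to 17.1), against 1824 in the rest (16.8%, 16.1 to 17.5), with a background of 16.7% over the 4 arms. By window, the joint list occupied 21 of 37 genes on 2L, 24 of 36 on 3L, 10 of 14 on 3R and 13 of 59 on X. The small chromosome 4, which is also largely heterochromatic and was not part of the windows or the rest, had joint regions at 63 of 80 genes (78.8%, 68.6 to 86.3) and IDR peaks at 32 (40%, 30.0 to 51.0). The replicates differed in direction, with overlapping intervals in replicate 2. Replicate 2 had a promoter region at 46.6% of the window genes (38.7 to 54.7), against 50.6% (49.7 to 51.5) in the rest. Replicate 3 had one at 52.1% (44.0 to 60), against 37.9% (37.0 to 38.8). Of the 146 window genes, 60 had a promoter region in both replicate lists, 8 in replicate 2 alone and 16 in replicate 3 alone. Among the 60 found by both were 56 of the 68 joint genes. Genes are not independent, and a single region can serve a divergent pair, as at CG14615 and tilB.

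Promoters of protein-coding genes held 16 of the 18 IDR peaks of the windows. The strongest member lay at l(1)G0196 on X (22491001 to 22491420), in an intron and 384 bp from the gene's nearest TSS, with signals of 120 in the joint list, 52.1 in replicate 2 and 66.9 in replicate 3. It ranked 1003 in the joint list, and no stronger region of the genome lay in the windows. Next came l(3)80Fg on 3L with 95.4, MED21, a subunit of the Mediator complex that links transcription factors to RNA polymerase II, with 92.6, and CG33217 with 91.9. In the replicate lists l(3)80Fg had 41.1 in replicate 2 and 52.5 in replicate 3, MED21 58.6 and 36.7, and CG33217 61.6 and 35.4. The scale of the signal was set in each list separately, so values are not compared between lists.

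RpL10, RpL15 and RpL5 encode proteins of the large ribosomal subunit, and each had an IDR peak. RpL10 on 3L had 89.9 jointly (53.8 in replicate 2 and 38.8 in replicate 3), with its summit 74 bp upstream of the TSS. RpL15 had 75 (32.9 and 37.1 in the same order), 64 bp upstream. RpL5 on 2L had 66.6, with 44.1 in replicate 2 and 20.8 in replicate 3, and its summit lay in the annotated 5'UTR, 23 bp from the nearest of 3 TSSs. RpL21, another gene of that subunit, had a weaker joint region of 34.1, below the weakest IDR peak of the windows at 59.5. RpL21 was named after its value was seen.

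The other IDR genes are given by signal and function. Nubpl, whose human counterpart helps assemble respiratory complex I, had 76.3 (41.6 in replicate 2 and 27.4 in replicate 3). UQCR-11, a subunit of respiratory complex III, had 67.6 (31.6 and 32.9), and ND-MLRQ, named as a subunit of complex I, 66.7 (36.9 and 28.0). Tim23, part of the import channel of the inner mitochondrial membrane, stayed below the IDR threshold with 50.2 (29.6 in replicate 2) and was named after its value was seen. Replicate 3 had no match to that region, as its summit at the Tim23 promoter, of 25.1, lay farther than 150 bp away. A second joint region at that promoter, of 45.2, matched both replicates, with 24.9 in replicate 2 and 25.1 in replicate 3. The remaining IDR genes were alpha-Cat, the catenin that ties cadherins to actin, with 88.9 (41.7 and 43.8), Clamp, encoding a zinc finger protein of dosage compensation, with 67.9 (45.0 and 24.7), CG12567 with 59.6 (20.3 and 37.0) and CG3651 with 59.5 (42.1 and 14.5). The classic heterochromatic genes lt and cta complete the 16 and are described below.

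All 18 IDR peaks of the windows had a summit within 150 bp in both replicate lists, as did 2685 of 2790 in the rest (96.2%, 95.5 to 96.9). IDR peaks were kept for agreement between these same replicates, so such matches are largely set by that choice. Of the 17 at a TSS, 16 lay upstream of the nearest TSS of any gene and 1, at CG12567, lay 23 bp downstream. The median position was 84 bp upstream in the windows and 126 bp upstream in the rest. The peak at mir-2491, a microRNA gene within introns of CG42346 and fog, had 80.5 (37.1 in replicate 2 and 39.8 in replicate 3). Of the 17, it alone had no TSS of a protein-coding gene within 500 bp. At l(1)G0196 and ND-MLRQ the nearest TSS was also that of a noncoding gene, lncRNA:CR43493 at 339 bp and mir-4942 at 33 bp.

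Well-known heterochromatic genes were occupied in most cases. Of 13 such genes, all of which lay in the windows, 10 had a promoter region in the joint list and in both replicates, and 4 had an IDR peak. A replicate's region at a promoter was not always the one that matches the joint region. Over all protein-coding genes of the 4 arms the shares were 42.4% in the joint list, 50.5% in replicate 2, 38.0% in replicate 3 and 16.7% for IDR peaks. The list was put together with results of these data known, so nothing is read from its share. The light gene lt, a subunit of the HOPS complex that delivers vesicles to the lysosome, had 72.4 jointly (30.5 in replicate 2 and 34.5 in replicate 3) with its summit 144 bp upstream of the TSS. The gene concertina, cta, encodes a G protein alpha subunit for cell shape change at gastrulation and had 60.8 (41.7 and 19.2), 44 bp upstream. RpL5 and RpL15 were the other 2 with an IDR peak.

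The next 6 fell below the IDR threshold. Dbp80, an RNA helicase gene, had 56.3 (36.9 in replicate 2 and 15.3 in replicate 3), and Set1, a histone H3 lysine 4 methyltransferase gene, 47.9 (29.8 in replicate 2 and no match in replicate 3, whose strongest summit at that promoter, of 19.4, lay farther than 150 bp away). On X, su(f), which encodes an mRNA cleavage factor subunit, had 40.4 (20.6 and 22.9). The cohesin subunit gene vtd had 35.6 (13.1 and 24.4), Myo81F, a myosin gene, 31.1 (16.4 and 13.9), and Parp1, encoding poly(ADP-ribose) polymerase, 24.9 (9.15 and 14.3). Parp1 is thus near the bottom of replicate 2, at rank 27479 of 30000. The 3 without a promoter region in any list were Snap25, a SNARE gene of synaptic vesicle release, and nvd and spok, both enzymes of ecdysone synthesis. Their nearest joint summits lay 2277 bp, 21270 bp and 1686 bp from the TSS.

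**Figure D3:**
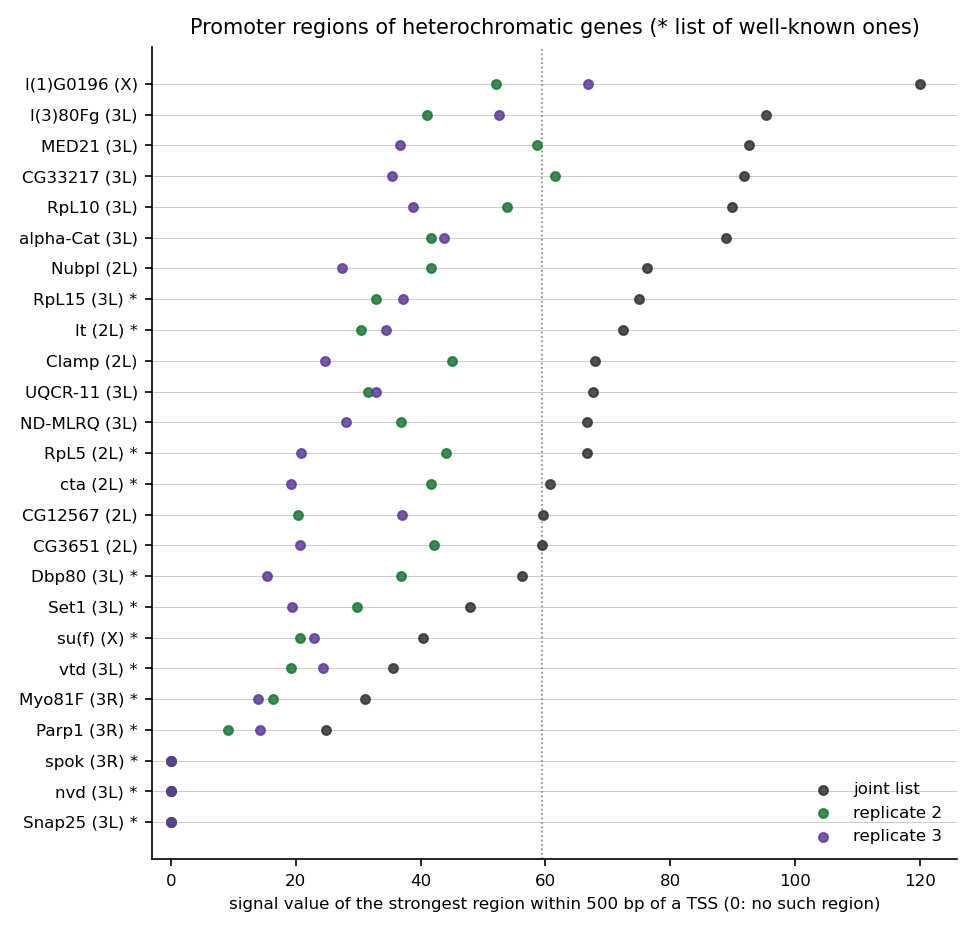
Signal value of the strongest region within 500 bp of a TSS, in the joint list and each replicate list, for the 16 window genes with an IDR peak and for the 13 well-known heterochromatic genes (asterisk), with the arm in brackets; a replicate's value can come from another region of the same promoter than the joint one, 0 means no such region and the dotted line is the weakest IDR peak of the windows at 59.5. Joint values run from 24.9 for Parp1 to 120 for l(1)G0196 among genes with a region, and spok, nvd and Snap25 lie at 0 in all 3 lists.

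The other genes of the 20 strongest promoter regions were CG40228 on 3L, at 55.2 (27.2 in replicate 2, 27.9 in replicate 3), and Alg-2 on 3R, at 54.9 (29.6 and 20.3). Alg-2 led the 3R window, where no IDR peak lay (0 of 14 protein-coding genes, which allows up to 21.5% by the Wilson interval). The genes that follow were named after their values were seen. On 3L CG40045 had 52.0 and Vps11, which encodes another HOPS subunit, 47.8. CG42748 on 2L had 47.9, and CG41099 on 3R had 46.2. On X a region at stnA and stnB, which share a transcript and act in synaptic vesicle recycling, had 46.6, with its summit inside an annotated transposon. CG14615 and tilB, a cilia gene, shared a region of 46.2.

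Away from promoters the members were weak, and the most frequent class was a match in replicate 3 alone. The 379 regions farther than 500 bp from every TSS had a median joint signal of 20.9, against 23.7 for the 14842 such regions in the rest. At TSSs the medians were 32.7 in the windows and 33.1 in the rest, and the upper quartiles were 47.9 and 63.8. Of the 379, 202 lay in introns, 138 in intergenic sequence and 19 in coding exons. The strongest was the IDR peak at l(1)G0196, in a noncoding exon 1307 bp from a TSS, with 61.7 in the joint list, 39.8 in replicate 2 and 16.1 in replicate 3. It was followed by a region in an intron of l(3)80Fg with 54.4 and by another at l(1)G0196, in a coding exon, with 49.6. The next were an intergenic region 2881 bp from Spf45 with 36.6 and a region in an intron of lncRNA:CR44997, with lncRNA:CR44109 as its nearest gene, with 36.5. The last had 25.9 in replicate 2 and no match in replicate 3. The upper quartile of the off-promoter members was 23.8.

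A summit within 150 bp in both replicates was found for 45 of the 379 (11.9%, Wilson interval 8.99 to 15.5), against 35.3% (34.5 to 36.1) of such regions in the rest. Replicate 3 alone matched 211 of them (55.7%, 50.6 to 60.6), against 28.6% (27.9 to 29.3) in the rest, and replicate 2 alone 70 (18.5%, 14.9 to 22.7), against 27.5% (26.8 to 28.2). At promoters the share matched by both was 50% (40.2 to 59.8) in the windows and 52.0% (50.6 to 53.3) in the rest. Replicate 3 alone matched 20.8% of promoter members (13.9 to 30.0), against 12.3% (11.4 to 13.2) in the rest. For replicate 2 alone the shares were 22.9% (15.6 to 32.3) and 31.1% (29.8 to 32.4). Read from the replicate lists, 45 of the 971 off-promoter regions of replicate 3 in the windows had a counterpart in replicate 2 (4.63%, 3.48 to 6.14), against 27.6% (27.0 to 28.2) in the rest. For the 257 of replicate 2 the share with a counterpart in replicate 3 was 18.3% (14.0 to 23.5), against 31.0% (30.3 to 31.7). At promoters, 51.0% of replicate 3's window regions (41.3 to 60.7) had a counterpart in replicate 2, against 58.3% (56.8 to 59.7) in the rest. For replicate 2's promoter regions the shares were 54.9% (44.7 to 64.8) and 39.9% (38.8 to 41.1).

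**Figure D4:**
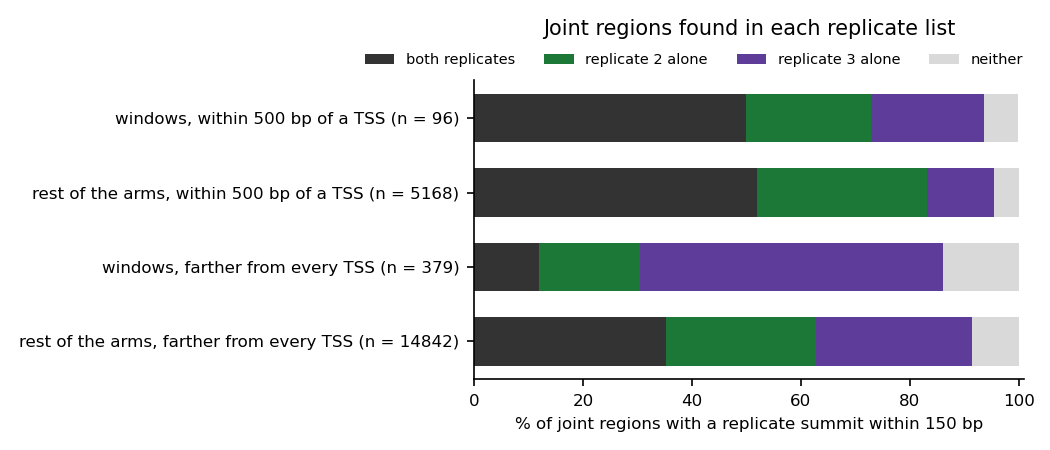
Share of joint regions with a replicate summit within 150 bp, in %, by whether both, either or neither replicate list holds one, for the windows and the rest of the 4 arms and for regions within 500 bp of a TSS and farther away. The bars at TSSs are alike for windows and rest in the share found by both (50% and 52.0%), while away from TSSs that share is 11.9% in the windows and 35.3% in the rest.

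The difference between the replicates opened below their strongest regions. Among regions ranked 1 to 3438 in each list, those in the windows made up 0.641% of the joint list's regions on the 4 arms (0.406 to 1.01), 0.606% of replicate 2 (0.379 to 0.969) and 0.775% of replicate 3 (0.512 to 1.17). At ranks 3439 to 5000 they made up 1.05% of replicate 2 (0.615 to 1.79) and 3.82% of replicate 3 (2.90 to 5.01), and at ranks 25001 to 30000 2.15% (1.74 to 2.64) and 5.60% (4.93 to 6.34). The joint list reached 3.98% (3.42 to 4.62) at its weakest ranks. Both replicate lists hold the same number of regions, and the read depth behind each is unknown. Unique 50-mers at 90% or more of positions were found for 94.0% of replicate 2's regions in the windows and 92.3% of replicate 3's, and at every position for 88.5% of replicate 2's and 80.9% of replicate 3's. The median width of a region was 424 bp in replicate 2 and 384 bp in replicate 3, in the windows and in the rest alike. The part of depth or mapping in the difference between the replicates was not tested.

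**Figure D5:**
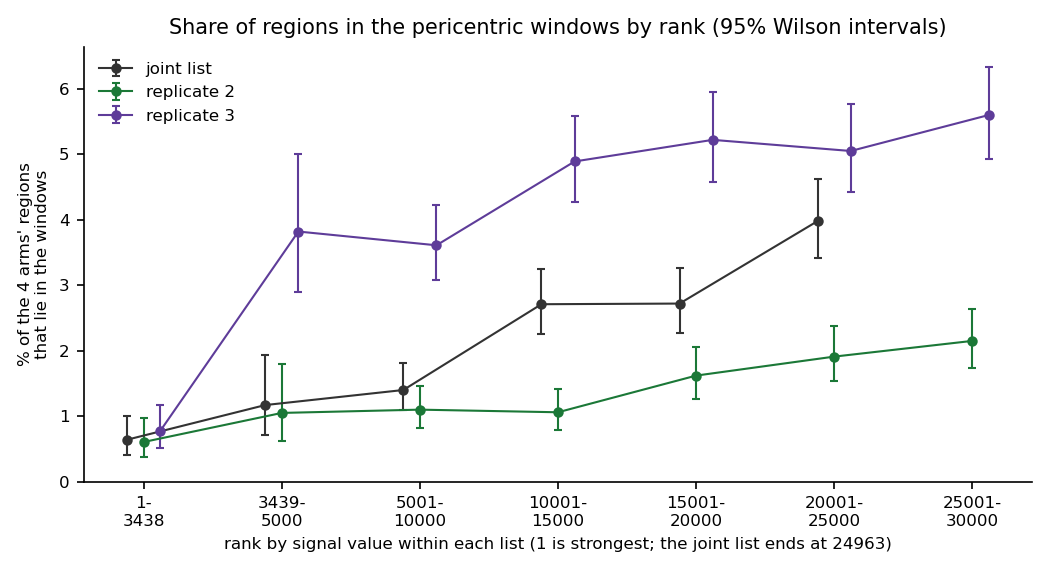
Share of the 4 arms' regions that lie in the pericentric windows, in %, by rank of signal value in the joint list and each replicate list; bars are 95% Wilson intervals. The 3 lists start between 0.606% and 0.775% and part from rank 3439 on, where replicate 3 stands at 3.82% and replicate 2 at 1.05%.

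Several long genes held more summits of replicate 3 than of replicate 2. So did the windows as a whole, with 1069 regions of replicate 3 and 348 of replicate 2. Myo81F on 3R, 1965.9 kb long, held 22 joint summits with a median signal of 20.5, 0 summits of replicate 2 and 107 of replicate 3. Snap25, over 225 kb on 3L, held 11 joint summits, 0 of replicate 2 and 23 of replicate 3, and nvd held 2, 1 and 11. Dbp80, over 142.8 kb, held 11 joint summits, 7 of replicate 2 and 22 of replicate 3. Among other genes, CG42748 held 16 joint summits over 35.0 kb and lncRNA:CR44997 held 14 over 140.4 kb. The acetylcholine receptor subunit gene nAChRalpha4 held 14 over 80.8 kb. AGO3, an Argonaute gene of the piRNA pathway, held 12 over 135.0 kb. These are counts and not rates, so a long gene can hold many summits and still be sparse. The windows had 39.0 regions per Mb in the joint list, 28.6 in replicate 2 and 87.9 in replicate 3.

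Summits inside transposons were a minority of the members. They numbered 45 of 475 (9.47%), against 0.525% of the 20010 in the rest, where transposons cover 15.2% of the windows and 4.0% of the rest. Of the 45, 19 lay in INE-1, a short and ancient element scattered through fly heterochromatin, and 4 in Cr1a. None of the 18 IDR peaks lay in a transposon. Reads from repeated copies are hard to place, and 452 of the 475 members (95.2%) had unique 50-mers at 90% or more of their positions.

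The shares of summits with a short motif on either strand, no more than 100 bp away, are given as descriptions. CGATA, contained in the DREF and BEAF-32 sites, was found at 36 of the 96 promoter members (37.5%, Wilson interval 28.5 to 47.5), against 32.3% (31.1 to 33.6) at promoter regions of the rest, and the longer DREF site TATCGATA, in which CGATA is contained, at 6 (6.25%, 2.90 to 13.0) against 5.03% (4.47 to 5.66). GAGAG, the core of the GAGA factor site, was at 13.5% (8.09 to 21.8) against 20.1% (19.0 to 21.2). The core promoter element GGTCACAC was at 0 of 96, which allows up to 3.85%, against 2.69% (2.28 to 3.17), and AACAGCTG at 1.04% (0.184 to 5.67) against 3.81% (3.32 to 4.37). Around all protein-coding TSSs, occupied or not, CGATA was found in 43.9% of the windows' TSSs and 37.2% of those in the rest, GAGAG in 17.0% and 24.8%, GGTCACAC in 0.943% and 5.70%, and AACAGCTG in 1.89% and 5.41%. TATCGATA was there in 15.6% (11.3 to 21.1) of the windows' TSSs and 6.45% (6.07 to 6.86) of those in the rest. Among TSSs with unique 50-mers at 90% or more of positions its shares were 5.85% (3.21 to 10.4) and 6.60% (6.21 to 7.02). At those same TSSs CGATA had 38.0% (31.1 to 45.5) in the windows and 37.3% (36.5 to 38.1) in the rest, and GAGAG 18.7% and 24.6%. Satellite-like runs of 3 tandem copies of AATAT were at 0 of the 475 members and those of AAGAG at 1. A match describes the letters present and not a bound site.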

How the data were processed

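ChIP-seq regions of E(var)3-9-GFP were read from the lists deposited by the authors for replicate 2, replicate 3, both together and the IDR peaks, in dm6. The signal value is a score assigned by the authors' caller in the deposited lists and was used to describe and rank regions. No label or header names the aligner, the peak caller or the IDR threshold, and read depth is unknown. The control library is not analysed here. Sequence and genes came from Release 6 of the genome with its Ensembl annotation, with transposon entries kept apart from TSSs. A region was placed by its summit and counted as at a promoter within 500 bp of a TSS, and replicates were matched within 150 bp. Rates were compared with an exact two-sided conditional binomial test with 95% Clopper-Pearson intervals, Benjamini-Hochberg adjusted over 12 tests (3 measures in 4 lists), at a threshold of 0.05. Shares carry 95% Wilson intervals. All cover the counting of regions, with 2 replicates of 1 line behind them.

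The genes named are those with an IDR peak at a TSS, those of the 20 strongest promoter regions and the 5 strongest others, the 13 well-known heterochromatic genes, and the regions nearest the borders. Genes counted for many summits were named after their values were seen. The windows, gene list and motifs were chosen with earlier results of these data known, and GTTCACA was added after the printed sequences had been read. Alternatives were each replicate alone, moved borders, the strongest part of the list, merged regions, midpoints, unique 50-mers and 32-mers as length, and other definitions of a promoter. The rate test and the search for unique k-mers were tested on simulated data. Software was Python 3.11.15, scipy 1.17.1, numpy 2.4.6, matplotlib 3.10.9 and pandas 2.3.3.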

Additional observations from a re-analysis of the deposited data

Results flagged for a closer look

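The lists were also deposited in the older assembly dm3. It keeps part of the heterochromatin of these arms in separate scaffolds, 2LHet, 3LHet, 3RHet and XHet. Regions there were not matched to the dm6 windows and can be the same regions seen again, so they are not counted as further signal. The highest joint signals were 95.6 on 3LHet, 59.6 on 2LHet, 55.0 on 3RHet and 40.5 on XHet. Members of the dm6 windows had nearly the same values, with 95.4 at l(3)80Fg, 59.6 at CG12567, 54.9 at Alg-2 and 40.4 at su(f). The joint dm3 list had 127 regions on these 4 scaffolds, 65 of them on 3LHet, and the dm3 IDR peaks had 4, all on 3LHet, with a joint signal of up to 95.6. Replicate 3 had 491 regions there and replicate 2 had 97, both from lists of 30000. No control library was read, so a level in a control is not given.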

How the results depend on the processing

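Every alternative tried for the rates per Mb and for the rates away from TSSs kept the ratio below 1 and past the threshold, in the joint list (0.105 to 0.439 and 0.0694 to 0.417) and among IDR peaks (0.0277 to 0.119 and 0 to 0.0347). The same held for the joint rate per Mb on each of the 4 arms, the only rate for which alternatives were run by arm. The joint rate per TSS had no stable direction. It was 0.743 to 1.19 with 1 replicate left out, where the list of replicate 2 put it at 0.743 and past the threshold (adjusted exact p = 0.00473), 0.919 with borders 500 kb nearer the centromere, 0.875 with borders 500 kb farther away and 0.972 within 1000 bp of a TSS, none of these last 3 past the threshold. With protein-coding TSSs alone it was 1.30 (adjusted exact p = 0.0226), and with Mb of unique 50-mers near TSSs as the denominator, an alternative chosen after seeing the data, 1.28 (adjusted exact p = 0.0242). The IDR rate per TSS stayed below 1 and passed the threshold in 3 settings. These were 0.661 with borders farther away, 0.344 for the strongest part of the list and 0.545 within 1000 bp. IDR peaks cannot be called from 1 replicate. With 1 replicate left out, the 3438 strongest regions of the other replicate's list stood in for them in every IDR rate. Per TSS that gave 0.613 to 0.690. The cause of these changes was not tested. No paired analysis was possible because there is 1 group. Limits are the 2 replicates, unknown read depth, no control library, repeats where reads cannot be placed, and 18 IDR peaks in all.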

Other observations

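GTTCACA, read on either strand within 100 bp of the summit, was noticed in the printed sequences and then counted, so its shares carry no test. It was found at 5 of the 18 IDR peaks of the windows (27.8%, Wilson interval 12.5 to 50.9), namely l(3)80Fg, MED21, mir-2491, UQCR-11 and cta. In the rest of the arms it was at 59 of 2790 IDR peaks (2.11%, 1.64 to 2.72) and at 28 of the 1446 that lay at a TSS (1.94%, 1.34 to 2.78). Over all joint regions at TSSs it was at 7 of 96 in the windows (7.29%, 3.58 to 14.3) and at 2.44% (2.05 to 2.90) in the rest. Around all protein-coding TSSs, occupied or not, it was in 3.77% (1.92 to 7.27) of those in the windows and 2.49% (2.26 to 2.76) of those in the rest.

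TATCGATA was also present at 9 of the 379 members away from TSSs (2.37%, 1.25 to 4.45), against 52 of 14842 such regions in the rest (0.350%, 0.267 to 0.459). Its share in window sequence away from TSSs as a whole was not counted. A trait of these regions therefore cannot be told apart from one of the windows' sequence. Promoter members lay upstream of the nearest TSS in 80 of 96 cases (83.3%, 74.6 to 89.5), against 71.3% (70.1 to 72.6) in the rest.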
